A study of Mus musculus with 2 samples.

Results

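The proteasome subunit genes were taken as all symbols that begin with Psma, Psmb, Psmc or Psmd and a number and that had at least 50 UMIs (unique molecular identifiers, each marking 1 captured transcript) over all barcodes. Of 31053 genes in the files 40 fitted the name and 38 also the UMI limit. Just outside it lay Psma8, an alpha subunit made in the testis, with 20 UMIs, and Psmb11, the catalytic subunit of thymus epithelium, with 2. Just inside it lay Psmc3ip with 79 UMIs, whose product is a recombination factor and no proteasome subunit, and above it Psmd5 with 454. The other 37 comprised 7 alpha and 4 structural beta subunits of the 20S core, its 3 constitutive catalytic subunits, the 3 immunoproteasome catalytic subunits, 6 ATPases and 11 non-ATPases of the 19S particle, and 3 chaperones of 19S assembly.

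The cells were CD45+ leukocytes sorted as live and Epcam-negative from pancreatic islets of male C57BL/6J mice on chow diet. One library came from a pool labelled 1 week and 1 from a pool labelled 12 weeks, each of 6 to 8 mice. What is counted in weeks is not stated in the labels at hand. With 1 pool per time label no time difference could be tested, and every p-value below measures how a difference between groups of cells varied between these 2 libraries, which also differ in time label.

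The proteasome is the main protease of the cytosol and nucleus. Its 20S core is a barrel of alpha and beta rings with the proteolytic sites inside, and the 19S particle binds ubiquitin-tagged proteins, removes the ubiquitin, unfolds the protein and feeds it in. In leukocytes and under interferon, Psmb8, Psmb9 and Psmb10 take the places of the constitutive catalytic subunits Psmb5, Psmb6 and Psmb7, which gives the immunoproteasome and changes the peptides handed to MHC class I molecules. Macrophages degrade damaged proteins by this route after oxidative or heat stress, which also induce Hmox1, the heme-degrading enzyme, and Hspa1a, an inducible Hsp70 chaperone. Ifit3 is a gene induced by interferon.

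Filters left 1340 barcodes of the 1-week library and 1752 of the 12-week library. Macrophages, defined by at least 5 UMIs of the complement genes C1qa, C1qb and C1qc together, numbered 1243 and 1620, with medians of 7401 and 6890.5 UMIs per cell. Barcodes below that limit with at least 3 detected markers of a class were called B-like (26 and 29), T-like (10 and 34) or dendritic-like (14 and 26), and 47 and 43 had no class. The same marker lists defined these classes, so high sums of a list in its own class follow from the gate and do not test identity. The summed level of the 12 B markers was 31783 and 7812 in CPM (10000 times the percentage of a sum's UMIs) in B-like cells against 282 and 78.9 in macrophages. That of the 12 T markers was 5683 and 3967 in T-like cells against 20.9 and 30.9, and no list had a marker at 0 in its own B-like or T-like sum. Ighm alone gave 27086 and 1864 CPM of the B-like marker sums at 1 and 12 weeks. The 14 dendritic markers summed to 2170 and 2410 CPM in dendritic-like cells, where 0 and 1 of them were at 0, and to 420 and 504 in macrophages. The 11 macrophage markers summed to 14340 and 13067 CPM in macrophages and to between 33.0 and 1137 in the other classes. They include the 3 C1q genes that set the gate. Without these 3 the sums were 4355 and 4102 CPM in macrophages and 1096 and 1082 in dendritic-like cells. B-like cells then had 148.0 and 53.3 and T-like cells 0 and 200.8. Islet hormone and other endocrine RNA made up 19685 and 5758 CPM of macrophage sums and 581 to 1204 of the others. The libraries shared 3 barcode sequences. Of the macrophages 258 and 227 also carried at least 3 dendritic markers.

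Macrophage sums held 43942 and 40922 UMIs of the 38 genes at 1 and 12 weeks, or 3852 and 3577 CPM. The class sums were far smaller. B-like cells held 841 and 538 such UMIs, T-like cells 155 and 751, and dendritic-like cells 739 and 1084. Because a CPM is a share of a sum, it does not tell fewer cells with a transcript from fewer copies per cell. The counts per barcode hold that information, but cells with a transcript were not counted.

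All 38 genes had UMIs in macrophages of both libraries. The 14 constitutive 20S genes summed to 2040 and 1785 CPM, the 17 genes of the 19S particle to 1351 and 1387, the 3 immunoproteasome genes to 391.7 and 333.4 and the 3 assembly chaperones to 64.96 and 68.96. These are sums of different numbers of transcripts, and no order of expression between genes is drawn from them.

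Of the 3 immunoproteasome genes 2 were higher in the dendritic-like cells than in macrophages, and the constitutive catalytic subunits did not pass the test. Psmb8, whose product replaces Psmb5, had 244.3 CPM in macrophages at 1 week and 207.0 at 12 weeks, against 551.6 (75 UMIs) and 527.4 (116 UMIs) in dendritic-like cells. Psmb9, which replaces Psmb6, had 52.2 and 57.4 CPM in macrophages against 147.1 (20 UMIs) and 204.6 (45 UMIs). In both genes both dendritic-like sums lay above both macrophage sums, as they did in Psmb10, which did not pass. How many of all genes do so was not counted. The 2 dendritic-like sums were not alike in all their markers. At 1 and 12 weeks Xcr1 stood at 132.4 and 13.6 CPM, Siglech at 147.1 and 9.1 and Cd209a at 117.7 and 304.6. Others were close, such as Plbd1 at 647.3 and 668.4. The log2 fold change of macrophages minus dendritic-like cells was -1.10 for Psmb8 (SE 0.31, edgeR adjusted p = 0.0155) and -1.55 for Psmb9 (SE 0.31, edgeR adjusted p = 0.00159). Psmb10, which replaces Psmb7, stood at 95.1 and 69.0 CPM in macrophages and 125.0 and 95.5 in dendritic-like cells, and did not pass (-0.27, SE 0.34, edgeR adjusted p = 0.644). For the constitutive partners the values were -0.14 for Psmb5, -0.15 for Psmb6 and -0.22 for Psmb7, with edgeR adjusted p of 0.821, 0.779 and 0.697. DESeq2 called both genes too, as did the fit without macrophages that carried markers of other leukocytes (-1.11 and -1.57, edgeR adjusted p 0.00789 and 0.000605). The Psmb8 call was lost when no filter on low counts was used (-0.87, edgeR adjusted p = 0.266).

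Of the 33 members that passed the low-count filter in this fit, 0 were higher and 2 lower in macrophages than in dendritic-like cells, while 12.4% of all 3125 genes tested were called higher and 7.62% lower. At an unadjusted edgeR p under 0.05, 1 was higher and 4 lower, against 576 and 404 of all 3125 genes. The median log2 fold change of the members was -0.22, against 0.03 over all genes. Psmc3ip, Psmd3, Psmd5, Psmd9 and Psmd10 did not pass the filter. DESeq2 also called Psma7, an alpha subunit, lower in macrophages. The 19S sum was 1464 and 1459 CPM in dendritic-like cells and 1351 and 1387 in macrophages, and 0 of its 16 genes tested passed by edgeR or DESeq2 (1 higher at an unadjusted edgeR p under 0.05). Of 11 macrophage markers 4 had no UMI in the dendritic-like cells of the 1-week library and 1 in those of the 12-week library.

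**Figure D1:**
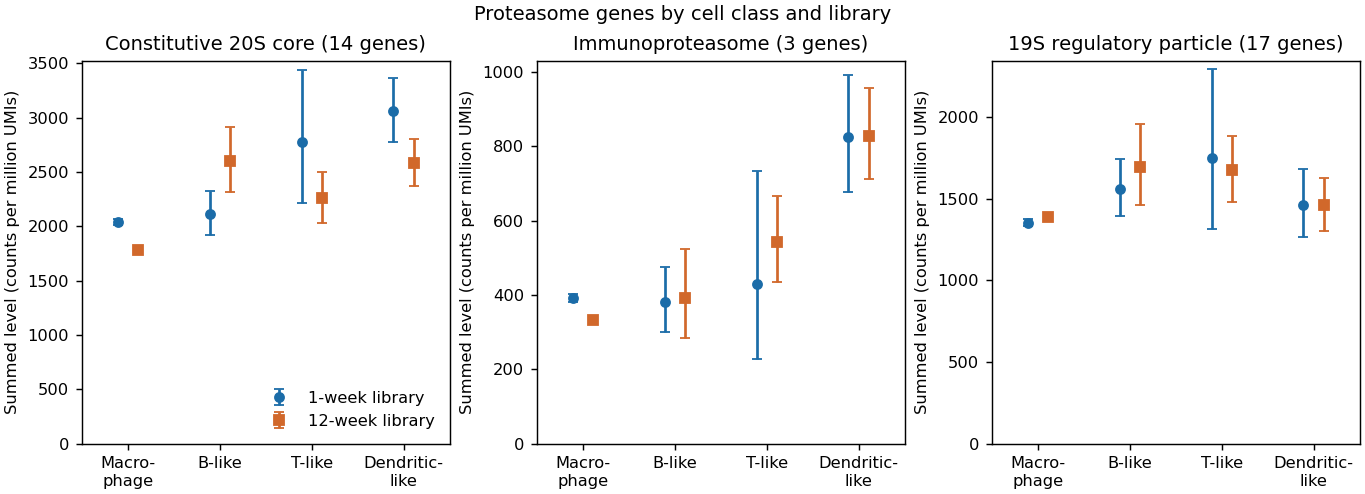
Summed level in CPM (vertical axes) of the constitutive 20S, immunoproteasome and 19S genes in macrophages and the other 3 classes, of the 1-week library (circles) and the 12-week library (squares), with exact 95% Poisson intervals that cover counting error only. The immunoproteasome sum reached 824 and 827 CPM in dendritic-like cells against 391.7 and 333.4 in macrophages, while the 19S sums of those classes were 1464 and 1459 against 1351 and 1387.

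Other genes of antigen processing were measured alongside. Psme1, an interferon-inducible subunit of the 11S activator that caps the core, had 247.6 and 266.5 CPM in macrophages against 529.6 and 568.3 in dendritic-like cells (log2 fold change -0.94, SE 0.31, edgeR adjusted p = 0.0389). Tap1, which carries the peptides into the endoplasmic reticulum, had 26.6 and 32.9 against 88.3 and 68.2 CPM (-1.19, SE 0.41, edgeR adjusted p = 0.0493). The sums behind Tap1 were small, with 12 and 15 UMIs in dendritic-like cells. Of 11 class I genes tested 1 was higher and 1 lower in macrophages, against 12.4% and 7.62% of all genes, so the class I list did not stand out by its count. The higher one was B2m, the light chain of class I molecules (0.88, edgeR adjusted p = 0.0498). Zfand5, whose product binds and stimulates the proteasome, was higher in macrophages than in B-like (2.33), T-like (2.73) and dendritic-like cells (1.80), with edgeR adjusted p of 0.00032, 0.000329 and 0.00211. It had no UMI in the 1-week T-like sum. Its relative Zfand2a, a heat-shock-inducible gene for a proteasome adaptor, had 84.9 and 152.3 CPM in macrophages and 0 UMIs in B-like and T-like cells of both libraries.

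Against B-like cells 1 member passed, and macrophages had the lower level. Psmb1, a structural beta subunit, had 168.5 and 126.3 CPM in macrophages and 222.1 (45 UMIs) and 355.1 (40 UMIs) in B-like cells. The difference came to -0.91 on the log2 scale (SE 0.31, edgeR adjusted p = 0.0309). Across 6 alternatives, listed in the closing section, its adjusted p rose to between 0.0649 and 0.68 (edgeR or DESeq2), so the call depends on the processing. Of 33 members tested 0 were higher and 1 lower, against 21.6% and 15.7% of all genes. At an unadjusted edgeR p under 0.05 there were 0 and 2, against 779 and 656 of all 3125 genes. Immunoproteasome genes did not pass against B-like cells, with log2 fold changes of -0.12 for Psmb8 (SE 0.33), -0.07 for Psmb9 (SE 0.41) and -0.00 for Psmb10 (SE 0.37) and edgeR adjusted p of 0.802, 0.922 and 0.999, and all 3 turned positive with RLE scaling (0.061, 0.12 and 0.18). The constitutive partners gave -0.29 for Psmb5, 0.35 for Psmb6 and 0.32 for Psmb7 (edgeR adjusted p 0.547, 0.43 and 0.539).

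No member passed against T-like cells. By edgeR 0 were higher and 0 lower, against 18.4% and 12.6% of all genes, and DESeq2 called 0 as well. At an unadjusted edgeR p under 0.05 there were 0 and 3, against 723 and 563 of all 3125 genes. Psmb9 had 165.2 CPM in the 1-week T-like sum, from 5 UMIs in 10 cells, and 103.4 at 12 weeks, both above the macrophage levels (log2 fold change -0.73, SE 0.42, edgeR adjusted p = 0.199). Psmb8 was at 198.3 and 298.2 CPM in T-like cells (0.07, SE 0.36, edgeR adjusted p = 0.909), and the macrophage levels lay between those values. Psmb10 gave -0.38, Psmb5 0.66, Psmb6 0.67 and Psmb7 0.51, with edgeR adjusted p of 0.515, 0.286, 0.193 and 0.414. Psmb1 stood at 429.6 and 316.4 CPM in T-like cells (-0.90, edgeR adjusted p = 0.0536). It passed without the library term and without macrophages that carried at least 3 B, T or dendritic markers. The first of these settings also called Psmc4, a 19S ATPase, and both genes are named here after their values were seen.

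The direction of the family's median against T-like and B-like cells depended on the scaling. In plain CPM the members summed to 4150 and 4776 in B-like, 5122 and 4570 in T-like and 5435 and 4929 in dendritic-like cells, all above the macrophage 3852 and 3577. After TMM scaling, which offsets a few very abundant transcripts, the median log2 fold change of the tested members was -0.16 against B-like cells (all genes -0.043), 0.07 against T-like cells (all genes -0.0068) and -0.22 against dendritic-like cells. RLE scaling moved the median of all genes to 0.14 against B-like and 0.15 against T-like cells, and that of the members to 0.024 and 0.22. Against dendritic-like cells the members were lower in macrophages in plain CPM, with TMM and with RLE (median -0.14, all genes 0.11). The corresponding medians of plain CPM ratios against T-like cells were -0.51 and -0.44 in the 1-week and 12-week libraries. The macrophage sums enter all 3 class comparisons, which are therefore not independent.

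The share of immunoproteasome transcripts compares each gene with its counterpart in the same sum and needs no scaling. Psmb8, Psmb9 and Psmb10 made up 50.7% (95% exact binomial interval 49.7 to 51.8) of their UMIs plus those of Psmb5, Psmb6 and Psmb7 in 1-week macrophages and 49.1% (48.0 to 50.2) at 12 weeks. In dendritic-like cells the share was 60.9% (53.4 to 68.0) and 67.9% (62.0 to 73.5). It was 58.3% (49.4 to 66.8) and 47.8% (37.3 to 58.5) in B-like and 61.9% (38.4 to 81.9) and 65.0% (56.4 to 72.9) in T-like cells. Macrophage and dendritic-like intervals did not meet in either library. Those of B-like cells overlapped the macrophage ones in both libraries and those of T-like cells at 1 week only. By pair, Psmb9 made up 21.9% (20.3 to 23.5) and 24.7% (23.1 to 26.4) of Psmb9 plus Psmb6 in macrophages and 36.4% (23.8 to 50.4) and 51.1% (40.2 to 61.9) in dendritic-like cells. Psmb8 made up 69.6% and 67.7% of Psmb8 plus Psmb5 in macrophages and 78.1% and 83.5% in dendritic-like cells, and Psmb10 52.3% and 48.9% against 51.5% and 51.2% of its pair. The intervals cover counting error only, and these shares were not tested across libraries.

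**Figure D2:**
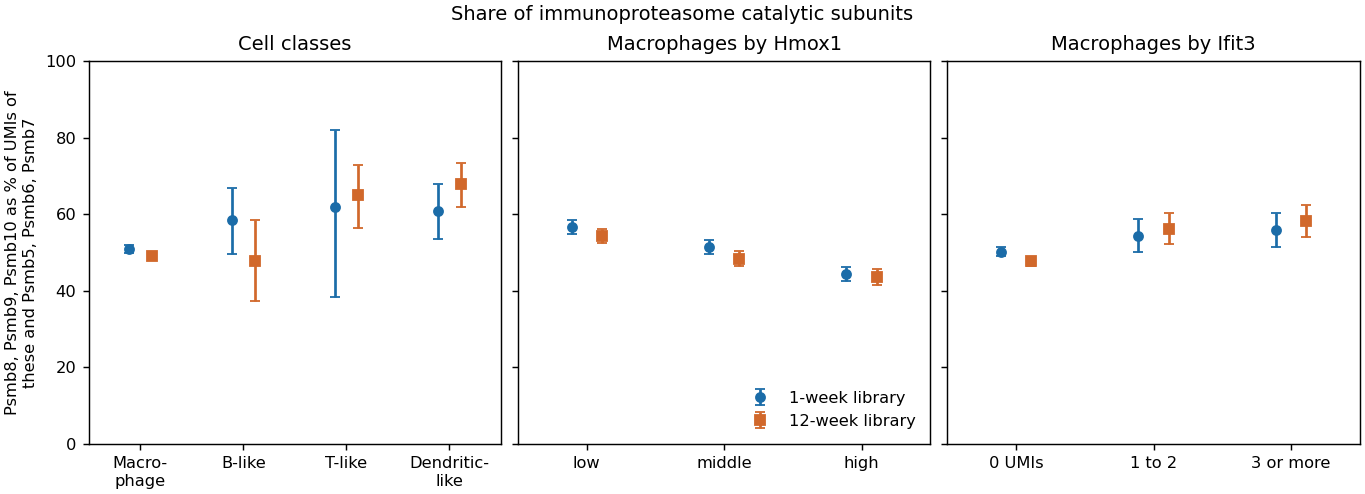
UMIs of Psmb8, Psmb9 and Psmb10 as a percentage of their UMIs plus those of Psmb5, Psmb6 and Psmb7, by cell class and by Hmox1 and Ifit3 bin of macrophages, in the 1-week (circles) and 12-week (squares) libraries with exact 95% binomial intervals. The share stood at 50.7% and 49.1% in macrophages, 60.9% and 67.9% in dendritic-like cells, and went from 56.6% and 54.2% in Hmox1-low to 44.2% and 43.5% in Hmox1-high macrophages.

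Within macrophages, cells were ranked in each library by Hmox1 UMIs per 10000 and cut into 3 bins of equal size, with 414, 415 and 414 cells at 1 week and 540 in each bin at 12 weeks. Hmox1 itself, which set the bins, stood at 59.3, 1034 and 3856 CPM from low to high at 1 week and 543, 3211 and 7610 at 12 weeks. Between the high and the low bin, 7 proteasome genes rose and 3 fell (38 tested), against 9.3% of all 9572 genes called higher and 4.77% lower. At an unadjusted edgeR p under 0.05 the counts were 9 and 5, against 1550 and 1361 of all 9572 genes. Those that rose were 4 of 11 19S non-ATPases, 1 of 6 ATPases and 2 of 7 alpha subunits. The 3 that fell were the 3 immunoproteasome subunits. None of the structural beta subunits, constitutive catalytic subunits or assembly chaperones passed.

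Psmd11, a lid subunit that helps to hold the 19S particle on the core, had the highest value. It stood at 75.04, 106.9 and 131.7 CPM in the low, middle and high bins at 1 week and 77.5, 103.5 and 133.0 at 12 weeks, an order shared by both libraries. The log2 fold change was 0.94 (SE 0.12, edgeR adjusted p = 0.00206). Psmd7, which pairs with the deubiquitinase of the lid, went from 94.4 over 107.9 to 142.2 CPM and from 86.9 over 125.8 to 139.0 (0.78, SE 0.13, edgeR adjusted p = 0.0071). Psmd1, the large base scaffold, went from 53.4 over 81.9 to 88.0 and from 70.5 over 85.9 to 99.6 CPM (0.75, SE 0.14, edgeR adjusted p = 0.00918). In these 3 genes each high bin lay above both low bins, as it did in Psmd12, Psma5, Psmc1 and Psma3 below. How many of all genes do so was not counted. Psmd12, another lid scaffold, was at 77.7, 105.7 and 117.8 and at 87.4, 99.8 and 105.1 CPM (0.58, SE 0.13, edgeR adjusted p = 0.0236). Psma5, an alpha ring subunit, was at 95.7, 83.1 and 116.6 and at 87.4, 110.4 and 128.4 CPM (0.56, SE 0.15, edgeR adjusted p = 0.0433), so that its middle bin was the lowest at 1 week.

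Another pair of genes that passed lies outside the rule for naming and was added after the values were seen. Psmc1, an ATPase of the base, had 54.7 and 77.5 CPM in the low and high bins at 1 week and 69.2 and 78.2 at 12 weeks (0.48, SE 0.14, edgeR adjusted p = 0.0482). Psma3, an alpha subunit, had 216.6 and 271.5 and then 207.1 and 238.4 CPM (0.41, SE 0.11, edgeR adjusted p = 0.0423). Both sit close to the threshold of 0.05.

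The immunoproteasome genes ran the other way. Psmb8 stood at 322.4, 244.8 and 187.0 CPM from the low to the high Hmox1 bin at 1 week and 266.1, 184.6 and 171.6 at 12 weeks (-0.56, SE 0.12, edgeR adjusted p = 0.02). Psmb9 stood at 80.9, 46.4 and 37.2 and at 72.4, 55.3 and 44.5 CPM (-0.77, SE 0.16, edgeR adjusted p = 0.0178). Psmb10 stood at 119.9, 100.4 and 71.8 and at 83.1, 66.0 and 58.1 CPM (-0.48, SE 0.14, edgeR adjusted p = 0.0497). Every high bin lay below both low bins in all 3 genes, and how many of all genes do so was not counted. Their constitutive counterparts did not pass, at -0.05 for Psmb5, 0.19 for Psmb6 and 0.08 for Psmb7 (edgeR adjusted p 0.807, 0.315 and 0.777), nor did Psmb1 at -0.28 (edgeR adjusted p = 0.138). The immunoproteasome share went from 56.6% (54.7 to 58.4) over 51.4% to 44.2% (42.4 to 46.1) at 1 week and from 54.2% (52.4 to 56.1) over 48.3% to 43.5% (41.5 to 45.6) at 12 weeks, without a test.

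**Figure D3:**
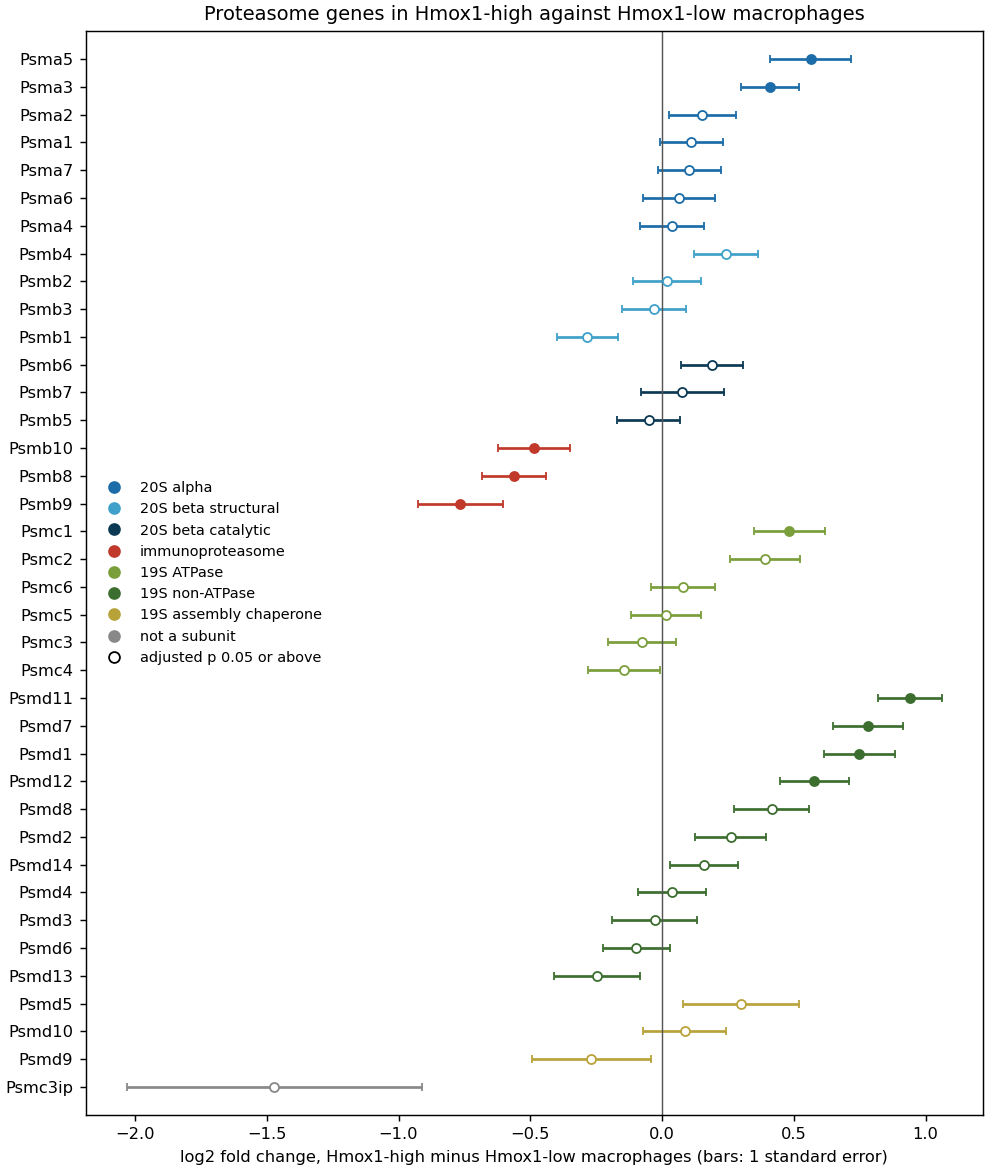
Log2 fold change of each of the 38 genes in Hmox1-high minus Hmox1-low macrophages (horizontal axis), with bars of 1 standard error from edgeR, coloured by role and filled where the adjusted p is under 0.05. The 3 immunoproteasome genes lie between -0.77 and -0.48, and Psmd11, Psmd7, Psmd1 and Psmd12 between 0.58 and 0.94.

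Sums by role were computed as well. The 19S genes summed to 1239 CPM in the low and 1429 in the high Hmox1 bin at 1 week and to 1327 and 1452 at 12 weeks, while the immunoproteasome genes summed to 523 and 296 and to 422 and 274. Constitutive 20S genes summed to 2154 and 2062 and to 1781 and 1822 CPM, lower in the high bin at 1 week and higher at 12 weeks. All 38 genes together stood at 3994 and 3855 and at 3606 and 3616 CPM. The median log2 fold change was 0.078 over the members and -0.055 over all genes after TMM scaling, and -0.091 and -0.022 over the members in plain CPM of each library, so no direction of the family as a whole is given. All 10 called genes kept their sign under each alternative run.

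**Figure D4:**
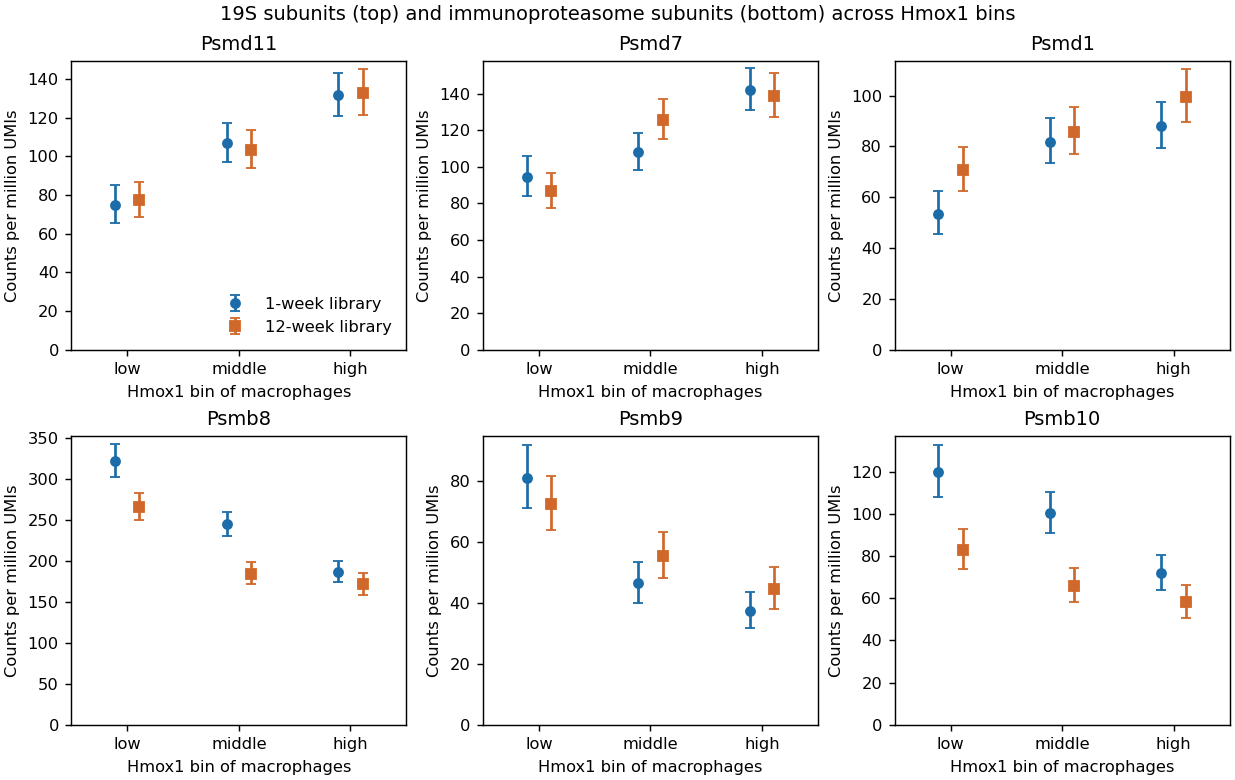
Level in CPM of Psmd11, Psmd7 and Psmd1 (top row) and Psmb8, Psmb9 and Psmb10 (bottom row) in the low, middle and high Hmox1 bins of macrophages of the 1-week (circles) and 12-week (squares) libraries, with exact 95% Poisson intervals. Psmd11 goes from 75.04 and 77.5 to 131.7 and 133.0 CPM, and Psmb8 from 322.4 and 266.1 to 187.0 and 171.6.

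How many of these calls hold depends on the test. DESeq2 called 3 higher and 1 lower, namely Psmd11, Psmd7, Psmd1 and Psmb8, against 563 and 98 of all 17489 genes in that fit. Thinning each cell to 3000 UMIs kept those 4 and Psmb9. Without the library term 0 of the 38 passed by edgeR (6 higher and 2 lower at an unadjusted p under 0.05), with Psmd11 at 0.94 and an edgeR adjusted p of 0.0866, and none of all 9572 genes passed in that fit either. In a single fit of cells split at the medians of both Hspa1a and Hmox1, Psmd11 (0.64, edgeR adjusted p = 0.0306) and Psmc1 (0.58, edgeR adjusted p = 0.0438) passed for Hmox1, and Psmb8 (-0.41), Psmb9 (-0.52) and Psmb10 (-0.32) had edgeR adjusted p of 0.141, 0.197 and 0.197. That fit called 111 of all 9215 genes higher and 39 lower.

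Several other RNAs moved along the Hmox1 bins, and their part in the proteasome differences was not tested unless stated. The 9 NRF2 target genes, Hmox1 among them, summed to 1495 and 10146 CPM in the low and high bins at 1 week and to 3146 and 15632 at 12 weeks. Of these sums Hmox1 itself gave 59.3 and 3856 CPM at 1 week and 543 and 7610 at 12 weeks. Its part of the rise follows from the ranking. The 10 heat shock genes summed to 5441 and 14257 and to 10369 and 28273. The 10 interferon genes summed to 1454 and 834 and to 1562 and 860, and 6 of them fell, against 4.77% of all genes. Endocrine RNA stood at 63560 and 2844 CPM at 1 week and 14355 and 1620 at 12 weeks. Cells with at least 3 of 9 cycling markers numbered 24 and 5 in the low and 6 and 2 in the high bins. The 11 macrophage markers summed to 15079 and 13384 and to 14861 and 11549 CPM. Without macrophages that carried at least 3 B, T, endocrine or endothelial markers of 1 list, 8 of the 10 genes passed, Psmb10 (edgeR adjusted p = 0.051) and Psmc1 (edgeR adjusted p = 0.0927) being lost. That fit called 743 of all 8241 genes higher and 369 lower. Without cycling cells all 10 passed and Psmc2 was added, against 996 of all 9425 genes higher and 502 lower.

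Some genes for proteins that serve the proteasome passed between the Hmox1 bins. Of 25 partner genes tested (activators, inhibitors, assembly factors and shuttles) 6 rose and 0 fell, against 9.3% and 4.77% of all genes. The other 19 did not pass, and 13 of the 25 values were positive and 12 negative. Zfand2a went from 29.5 to 122.6 CPM at 1 week and from 64.9 to 243.3 at 12 weeks (2.11, SE 0.14, edgeR adjusted p = 0.000117). Zfand5 went from 185.8 to 407.9 and from 208.7 to 445.5 CPM (1.26, edgeR adjusted p = 0.000514), and Txnl1, a thioredoxin-like protein bound to the 19S particle, rose by 0.84 (edgeR adjusted p = 0.00287). Of 11 ubiquitin and unfolding genes 6 rose and 0 fell, among them the chaperone partner Bag3 (2.26) and the autophagy receptor gene Sqstm1 (1.41), with edgeR adjusted p of 0.000117 and 0.000479. Of 13 class I genes 1 rose, the heavy chain gene H2-D1 (0.42, edgeR adjusted p = 0.0489), while the immunoproteasome genes fell.

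Promoter sequence is shown for 4 of the genes that changed with Hmox1, a pair that rose and a pair that fell, to set their start regions side by side. The choice of genes and motifs was made after the values were seen. RefSeq windows of 250 bases before to 50 after the transcript start (GRCm38.p6) were at hand for 32 of the 38 members. Each is written 5′ to 3′ along its gene's strand, with a motif match in capitals.
Psmd11 window (chr11:80428365-80428664, + strand), no match
Psmd11: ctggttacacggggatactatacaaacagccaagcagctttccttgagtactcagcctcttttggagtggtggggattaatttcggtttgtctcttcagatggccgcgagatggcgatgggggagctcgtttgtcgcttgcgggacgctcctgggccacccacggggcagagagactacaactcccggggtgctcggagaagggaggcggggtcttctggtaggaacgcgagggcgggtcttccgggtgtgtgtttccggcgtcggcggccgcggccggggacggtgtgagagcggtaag
Psmd12 window (chr11:107479278-107479577, + strand), antioxidant response core in capitals
Psmd12: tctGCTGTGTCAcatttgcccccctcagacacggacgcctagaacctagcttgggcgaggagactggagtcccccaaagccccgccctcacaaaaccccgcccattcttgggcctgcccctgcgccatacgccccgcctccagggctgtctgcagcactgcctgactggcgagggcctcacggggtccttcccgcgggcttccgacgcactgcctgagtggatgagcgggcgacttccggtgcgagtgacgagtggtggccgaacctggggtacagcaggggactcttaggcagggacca
Psmb8 window (chr17:34197945-34198244, + strand), interferon-gamma activated site in capitals
Psmb8: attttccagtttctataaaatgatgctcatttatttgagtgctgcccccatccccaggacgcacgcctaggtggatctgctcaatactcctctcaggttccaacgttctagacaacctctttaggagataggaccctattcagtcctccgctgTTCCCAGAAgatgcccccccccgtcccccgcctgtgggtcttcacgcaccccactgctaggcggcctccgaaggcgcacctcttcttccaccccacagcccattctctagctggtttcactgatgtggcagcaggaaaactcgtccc
Psmb9 window (chr17:34187281-34187580, − strand), heat shock element in capitals
Psmb9: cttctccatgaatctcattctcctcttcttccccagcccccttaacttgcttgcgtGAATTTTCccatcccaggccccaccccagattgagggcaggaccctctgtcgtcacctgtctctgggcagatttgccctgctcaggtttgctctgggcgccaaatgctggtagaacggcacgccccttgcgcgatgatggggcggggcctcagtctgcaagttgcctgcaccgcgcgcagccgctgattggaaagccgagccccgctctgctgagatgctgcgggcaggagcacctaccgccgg

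The letters searched on both strands were TGACNNNGC for the antioxidant response core bound by NRF2, GAANNTTC for a heat shock element, a pair of GAAA runs with any 2 bases between them for an interferon-stimulated response element, and TTCNNNGAA for an interferon-gamma activated site. Members were counted by gene and the background by window. The antioxidant core was found in 5 of 32 member genes (Psmb5, Psmb6, Psmc6, Psmd9 and Psmd12) and in 12.39% of 32851 windows of all genes. Positions are counted from the transcript start. In Psmd12 the core lay on the opposite strand from position -247, and Psmd11 held none of the 4 motifs. The heat shock element was in 2 member genes (Psmb5 and Psmb9) and 7.86% of all windows, the interferon-stimulated element in 3 (Psmb3, Psmd4 and Psmd9) and 3.443%, and the activated site in 2 (Psmb8 and Psmd2) and 8.298%. The site of Psmb8 began at position -97 and the element of Psmb9 at -194, counted from the RefSeq start. The GENCODE annotation starts both genes further upstream, at chr17:34197721 for Psmb8 and chr17:34187764 for Psmb9. By that annotation both windows, and the matches in them, lie inside the genes and not before them. The Psmb9 window overlaps that of Tap1, which is read from the opposite strand (chr17:34187306-34187605). A match describes letters in a window, not a bound site.

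No member passed between the Hspa1a bins. Ranked by Hspa1a, the low bins had no Hspa1a UMI and the high bins 4632 and 7470 CPM. The middle bins had a median of 1 Hspa1a UMI per cell in both libraries and also held cells with none. Such ties were split by barcode order, so the low and middle bins share cells without Hspa1a UMIs. By edgeR 0 of 38 members rose and 0 fell, against 4.96% of all 9533 genes called higher and 3.06% lower, and DESeq2 also called 0. At an unadjusted edgeR p under 0.05 there were 1 higher and 4 lower members, against 1263 and 1036 of all genes. Those 4, named after their values were seen, were Psmd5, a 19S assembly chaperone (-0.85), Psmd6 of the lid (-0.43), Psmb5 (-0.42) and Psmc1 (-0.40), with edgeR adjusted p of 0.106, 0.0985, 0.104 and 0.109. Other settings called up to 2 of them lower, Psmb5 and Psmd5 without the low-count filter and Psmd5 and Psmd6 without macrophages carrying markers of other cells. All genes called lower in these settings numbered 608 of 17489 and 338 of 8264. With 4 bins in place of 3, Psmd6 was the only member called, against 368 of 8889 genes called lower.

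Psmb5 stood at 106.7, 116.1 and 95.1 CPM from low to high Hspa1a at 1 week and at 121.4, 107.0 and 68.7 at 12 weeks. Psmb8 stood at 237.8, 244.2 and 250.6 and at 246.6, 218.3 and 156.5 CPM, higher in the high bin at 1 week and lower at 12 weeks (-0.21, SE 0.14, edgeR adjusted p = 0.388). All members together stood at 3829, 3898 and 3819 CPM at 1 week and at 3795, 3700 and 3237 at 12 weeks. The low and high bins were close at 1 week, and the high bin was the lowest at 12 weeks. Psmb9 gave 0.02, Psmb10 0.08, Psmb6 -0.15 and Psmb7 0.15 (edgeR adjusted p 0.961, 0.769, 0.466 and 0.531). The genes that rose with Hmox1 gave smaller values here, at 0.20 for Psmd11, 0.28 for Psmd7, 0.22 for Psmd1 and 0.12 for Psmd12 (edgeR adjusted p 0.386, 0.195, 0.34 and 0.633). These 4 are named after their values were seen. The difference between the Hmox1 and Hspa1a effects was not tested, and the bins divide the same cells.

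Some partner and ubiquitin genes passed between the Hspa1a bins. Of 25 partners 4 rose, against 4.96% of all genes, namely Zfand2a (1.67), Ubqln1, a shuttle for ubiquitinated proteins (1.08), Zfand5 (0.95) and Txnl1 (0.51). One fell (3.06% of all genes), Nfe2l1, the transcription factor that raises proteasome genes when the proteasome is impaired (-0.62, edgeR adjusted p = 0.043). Txnl1 and Nfe2l1 lie outside the rule for naming. The partner median was 0.13, with 14 values positive and 11 negative. Of 11 ubiquitin and unfolding genes 3 rose, among them Bag3 (3.25) and Ubb (1.02), and 0 fell. All 10 heat shock genes rose, a count that includes Hspa1a, which set the bins, and 5 of 10 interferon genes fell. The 6 endocrine transcripts summed to 23748 and 14038 CPM in the low and 3110 and 1393 in the high bins, and their part was not tested beyond leaving out cells that carried such markers.

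Macrophages with several Ifit3 UMIs were few. At least 3 Ifit3 UMIs were found in 39 and 69 cells, 1 to 2 in 60 and 101 and none in 1144 and 1450. The 39 and 69 cells also had more UMIs, with medians of 10228 and 7659 against 7290.5 and 6842. In the comparison of at least 3 with none, 0 of 37 members tested rose and 0 fell by edgeR, against 3.02% of all 5687 genes called higher and 0.229% lower, and DESeq2 called 0. At an unadjusted edgeR p under 0.05 there were 4 higher and 1 lower, against 402 and 274 of all 5687 genes. The 4 were Psmb8, Psmb9, Psmb10 and Psma3. The 1 was Psmd1 (-0.50, edgeR adjusted p = 0.418), which had risen with Hmox1. Psma3 and Psmd1 are named for completeness, after their values were seen.

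All 3 immunoproteasome genes had positive values without passing the threshold. Psmb8 stood at 242.2, 226.1 and 308.4 CPM with 0, 1 to 2 and at least 3 Ifit3 UMIs at 1 week and at 194.3, 270.5 and 346.6 at 12 weeks (0.60, SE 0.16, edgeR adjusted p = 0.124). Psmb9 stood at 50.4, 52.4 and 85.8 and at 52.4, 97.0 and 93.4 CPM (0.81, SE 0.23, edgeR adjusted p = 0.153). Psmb10 stood at 93.0, 106.2 and 120.4 and at 66.0, 66.4 and 127.5 CPM (0.68, SE 0.21, edgeR adjusted p = 0.189). In each gene the cells with at least 3 UMIs lay above those with none in both libraries, and how many of all genes do so was not counted. Psmb8 passed when the high bin held cells with at least 5 Ifit3 UMIs (0.68, edgeR adjusted p = 0.0317), and Psmb8 and Psmb9 passed without the low-count filter (0.53 and 0.74, edgeR adjusted p 0.0109 and 0.0335). Psmb5, Psmb6 and Psmb7 gave 0.19, 0.20 and 0.15 (edgeR adjusted p 0.739, 0.631 and 0.826). The immunoproteasome share was 50.2% (49.1 to 51.3), 54.4% (49.96 to 58.76) and 55.8% (51.4 to 60.2) at 1 week and 47.7% (46.5 to 48.9), 56.2% (52.1 to 60.2) and 58.2% (53.9 to 62.4) at 12 weeks.

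Among 13 class I genes 2 rose with Ifit3 and 0 fell, against 3.02% and 0.229% of all genes. Tap1, the neighbour of Psmb9, went from 22.01 to 71.17 CPM at 1 week and from 26.4 to 122.1 at 12 weeks (SE of the log2 fold change 0.25, edgeR adjusted p = 0.00233). Nlrc5, an activator of class I and immunoproteasome genes, went from 6.91 to 32.8 and from 11.4 to 30.5 CPM (1.83, SE 0.35, edgeR adjusted p = 0.0235). All 10 interferon genes rose, a count that includes Ifit3, which set the bins. Of 22 partners tested 0 passed (2 higher and 2 lower at an unadjusted edgeR p under 0.05, against 402 and 274 of all 5687 genes). In the cells with at least 3 UMIs the B markers stood at 1568 CPM at 1 week against 199 in cells without Ifit3, and the neutrophil markers at 587 CPM at 12 weeks against 20.1. The 6 endocrine transcripts went the other way, with sums of 1526 and 1487 CPM against 20454 and 6293, and 4 of them fell. Their part was not tested beyond leaving out cells with B, T, endocrine or endothelial markers, after which 0 members passed by edgeR (4 higher and 0 lower at an unadjusted p under 0.05). Of all 3902 genes in that fit 162 were called higher and 21 lower.

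Between the libraries, macrophages of the 12-week label had lower 20S sums and a 19S sum close to that of the 1-week label. No test was possible, and the intervals below cover counting error only. The 14 constitutive 20S genes summed to 0.875 (0.858 to 0.891) of the 1-week level, and 13 of them were below 1, with 11 intervals wholly below it. The lowest was Psmb1 at 0.750 (0.6996 to 0.8029), and the 1 above was Psma5 at 1.10 (1.01 to 1.19). The median ratio of all 9427 genes compared was itself below 1, at 0.956. How many of all genes had a ratio or an interval below 1 was not counted. The 17 genes of the 19S particle summed to 1.03 (1.00 to 1.05), with 10 above and 7 below 1. Among the immunoproteasome genes Psmb8 was at 0.847 (0.802 to 0.895), Psmb10 at 0.726 (0.661 to 0.796) and Psmb9 at 1.10 (0.982 to 1.23). Psmb5, Psmb6 and Psmb7 were at 0.928, 0.937 and 0.831. TMM scaling left 13 of 14 core genes below 1 and put 13 of 17 19S genes above it.

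No member reached a ratio of 1.5, against 6.43% of all 9427 genes compared, and 1 was at 1/1.5 or less, against 9.73%. That 1 was Psmc3ip at 0.508 (0.304 to 0.831), from 51 and 26 UMIs. The median ratio was 0.948 over the members and 0.956 over all genes. Endocrine RNA, at 19685 and 5758 CPM in these sums, differed between the libraries as well, and its part was not tested.

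**Figure D5:**
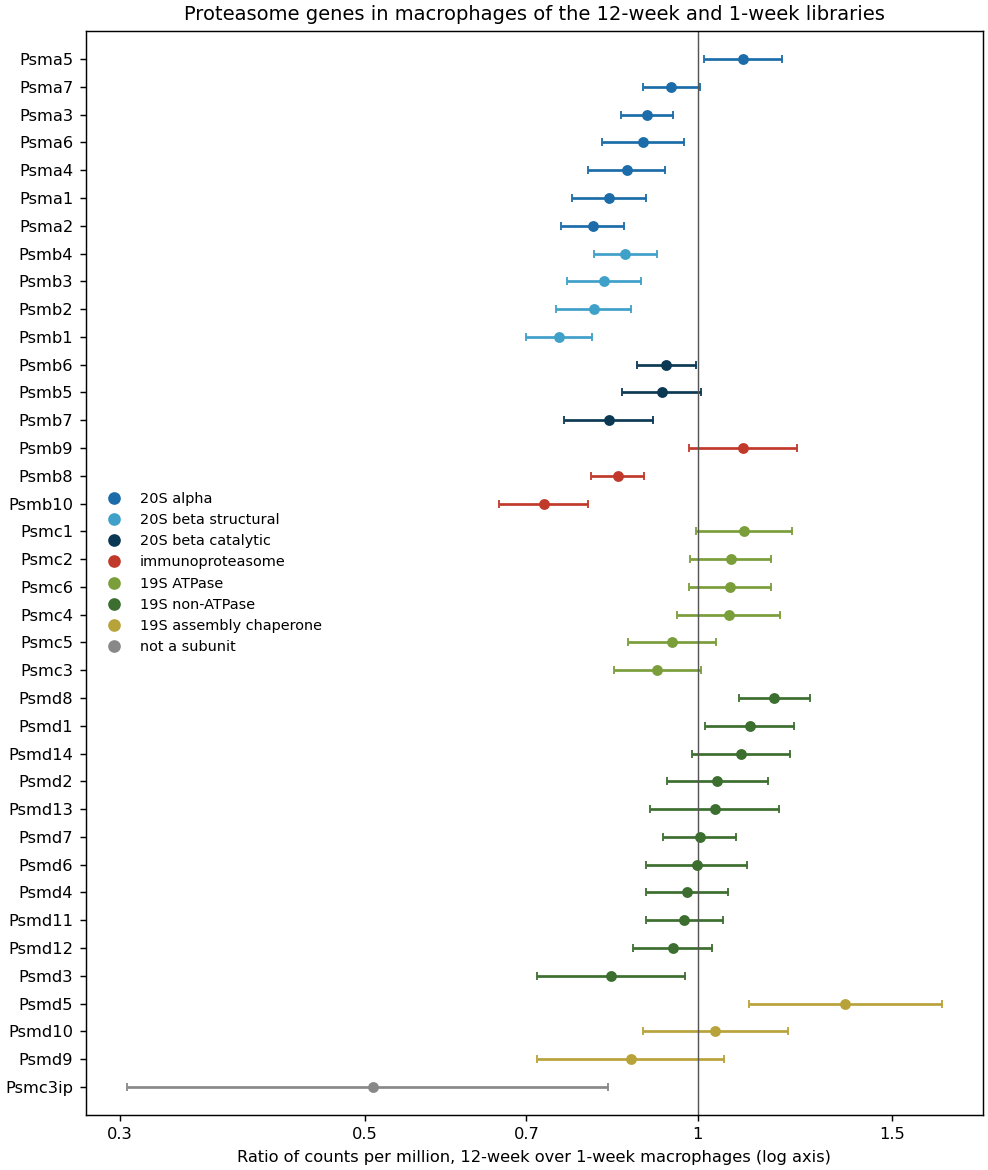
Ratio of CPM in macrophages of the 12-week over the 1-week library for each of the 38 genes (log axis), coloured by role, with 95% intervals that cover counting error only. Of 14 constitutive 20S genes 13 lie below 1, while 10 of 17 19S genes lie above it. The median ratio of all 9427 genes compared was 0.956.

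On the GRCm38 assembly, Psmb8 (chr17:34197721-34201454, + strand) and Psmb9 (chr17:34181987-34187764, − strand) lie in the class II region of the major histocompatibility complex, and Psmb10 on chromosome 8 (chr8:105935735-105938444, − strand). Psmb8 and Psmb10 overlap annotated antisense genes and Psmb9 overlaps Tap1 by 212 bases on the opposite strand. Psmd11 (chr11:80428615-80473248, + strand) and Psmd7 (chr8:107580381-107588464, − strand) overlap no other gene, whereas Psmd1 (chr1:86064387-86139151, + strand) shares its strand with an overlapping protein-coding model. In all, 17 members overlap a gene of the opposite strand and 2 a protein-coding gene of the same strand. Processed pseudogenes are annotated for Psmb5, Psmb6 and Psmb7. No source used here says whether strand was used in counting. Whether reads from the shared bases of such pairs were told apart is therefore not known here.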

How the data were processed

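Droplet 3' libraries of sorted islet leukocytes were made for 2 pools, 1 per time label. The files deposited by the authors hold raw UMI counts, 1 per gene and barcode. The authors mapped reads to mm10 with Cell Ranger, per the submitters' processing notes, and the file headers give version 3.1.0. The rule by which the authors told cells from empty droplets is not stated.

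Barcodes with at least 500 genes, 1000 UMIs and at most 10% mitochondrial UMIs were kept. The libraries held 12858754 and 12448628 UMIs. No doublet caller was run, so mixed droplets remain, and an alternative leaves out macrophages with at least 3 B, T or dendritic markers. Counts were summed per library and class, or per library and bin of macrophages. edgeR 4.0.16 (R 4.3.3) fitted quasi-likelihood models with TMM scaling, filterByExpr, and terms for library and class (8 sums, 3 residual degrees of freedom) or bin (6 sums, 2 residual degrees of freedom). Benjamini-Hochberg adjustment covered all genes tested, with a threshold of 0.05. The script was tested on simulated data. SE is the log2 fold change over the square root of F. Intervals are exact Poisson, binomial or conditional binomial at 95%. Nothing in the labels gives separate cultures or animals within a pool.

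Named in every comparison are the immunoproteasome subunits and their counterparts, and besides up to 5 called genes per direction, or a ratio of at least 1.5 or at most 1/1.5, and up to 3 called genes of each partner list. Other genes are named after their values were seen. The values of 1 listed gene are not reported here. Members, lists and bins were chosen with earlier results of these data known. Alternatives were DESeq2 1.42.0, RLE scaling, no low-count filter, no library term, stricter cell filters (1000 genes, 5% mitochondrial UMIs), other C1q limits (20 and 2 UMIs), other bins, thinning to 3000 UMIs and left-out cells. Gene positions came from a GENCODE annotation of GRCm38.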

Additional observations from a re-analysis of the deposited data

Results flagged for a closer look

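Proteasome transcripts were also present in low-C1q barcodes that met no class and entered no comparison. In 47 such barcodes of the 1-week library the 38 genes summed to 1679 CPM (1589 to 1773, counting error only), and endocrine transcripts made up 592552 CPM. In 43 barcodes of the 12-week library they summed to 2721 CPM (2535 to 2918), with endocrine transcripts at 258119 and neutrophil markers at 6716 CPM. Both sums lie below the macrophage levels of 3852 and 3577 CPM.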

How the results depend on the processing

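For single named genes 41 values under the tested alternatives lost the call and 4 gained it. Genes that had passed kept their sign in every alternative, whereas several that had not passed changed it, among them Psmb8, Psmb9 and Psmb10 against B-like cells. Leaving out the 1-week T-like sum, fitting both drivers and leaving out cells with other markers were chosen after seeing the data.

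Against B-like cells the count of lower members went from 1 to 0 under DESeq2, RLE scaling, no low-count filter, stricter cell filters, stricter C1q limits and without the 1-week T-like sum. All genes called lower numbered, in that order, 375 of 17731, 368 of 3125, 330 of 17731, 181 of 2075, 313 of 2923 and 448 of 4078. The median of the members moved to -0.040 (DESeq2), 0.024 (RLE), 0.15 (no filter), 0.036 (C1q limits), -0.0058 (without the T-like sum) and -0.30 (12-week library alone). Psmb1 lay between -0.56 and -0.88 in those fits. Against T-like cells 2 members were lower without the library term and 1 without mixed macrophages, against 405 of 3125 and 444 of 3122 genes tested. The median was 0.34 (DESeq2), 0.22 (RLE), 0.44 (no filter), -0.018 (stricter cells), 0.13 (C1q limits), and -0.51 and -0.44 in the 1-week and 12-week libraries alone. Against dendritic-like cells 1 member was lower with no filter (237 of all 17731 genes), where the member median was 0.023. The 1-week library alone gave a median of -0.44.

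For Hspa1a the members called lower numbered 2 without the filter and 1 with 4 bins, against 608 of all 17489 genes and 368 of 8889. Without cells carrying other markers they numbered 2, against 338 of 8264, and the 12-week library alone had a median of -0.24. For Hmox1 the higher and lower counts of 7 and 3 became 3 and 1 under DESeq2, against 563 and 98 of all 17489 genes. They became 0 and 0 without the library term, where 0 of all 9572 genes passed. With both drivers in 1 fit they became 2 and 0, against 111 and 39 of all 9215 genes. Thinned cells gave 3 higher, against 573 of all 7113 genes. The Hmox1 median was -0.091 and -0.022 in the libraries alone. For Ifit3, 2 members were higher without the filter (median -0.0084) and 1 at 5 or more UMIs (median 0.12). All genes called higher numbered 265 of 17489 and 216 of 6291 in these settings. The member median was 0.11 without cells carrying other markers. The median time ratio was 0.934 (stricter cells), 0.969 (mean over cells) and 0.988 (TMM), and members at 1/1.5 or less numbered 0 without cycling cells and 2 as a mean over cells. The cause of these shifts was not tested. Changing the filter changes the genes that enter the scaling and the fit as well as the adjustment.

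No paired analysis was possible because each time label has 1 library; the library term plays that part within each fit. The 1-week T-like sum held 155 member UMIs, the fewest of the class sums.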
